A study of Mus musculus with 60 samples.

Results

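These data compare liver RNA of sham-operated mice at opposite times of day, each 24 h after the operation. Members were chosen by group label: 3 livers after morning sham and 3 livers after night sham, 6 of the 60 libraries in the series. All 6 mice were 8-week-old male C57BL/6 animals, per the labels. The labels give operation times of 8 to 9 o'clock in the morning or at night for the resections and none apart for sham, so on that schedule at 24 h the sham livers were collected at the clock hour of their own operation. The labels mark the night operations by name, and the other group was read as morning from the operation times that the labels give. Every animal had been operated on, no unoperated liver enters the comparison, and the light schedule is not given in the sources used here. The wider series followed liver regeneration after partial hepatectomy (PHx, in which liver lobes are cut away) with sham operation as its control. Other libraries of the series serve for comparison: 6 PHx libraries at 24 h and 21 sham libraries at other hours after a morning operation.

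Liver cells carry a circadian clock in which CLOCK or NPAS2 pairs with ARNTL (also called BMAL1) to switch on genes through a DNA sequence called the E-box. Among the genes switched on are the Period, Cryptochrome and Rev-erb repressors, which feed back on the activators, so activators and repressors peak at opposite times of day. The clock, together with feeding and body temperature, sets daily rhythms of many genes for lipid, glucose, bile acid and protein handling in liver.

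Each gene's reads were counted by the authors, and the 6 libraries held 24611621 to 29256410 counts. Levels are given as CPM (each count scaled to a common library size) after scaling with TMM factors, which lay between 0.910 and 1.06. Differences are log2 fold changes of morning over night with their standard error (SE) from edgeR's quasi-likelihood test, and a gene was called at an adjusted p under 0.05. Levels are not divided by gene length, so they compare livers and not genes. The replicates are labelled as separate mice, and p-values measure the spread among 3 livers in each group. In bulk tissue, fewer cells of a type and less RNA per cell cannot be told apart.

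Night replicate 3 carried transcripts of the pancreatic acinar cell, the cell that makes digestive enzymes. The 24 of 36 listed acinar genes present in the count table summed to 18.8, 22.2 and 351 CPM in the morning libraries, and to 22.2, 13.1 and 14887 CPM in the night libraries. Rnase1, a pancreatic ribonuclease, had 0.198, 0.0751 and 50.7 CPM in the morning livers, against 0.209, 0.112 and 2301 CPM in the night livers. Acinar genes took 1.34% of all counts in night replicate 3 and 0.0346% in morning replicate 3, and at most 0.00225% in each of the other 4 libraries. For the 19 acinar genes at or above 100 CPM in night replicate 3, the level in morning replicate 3 was 1.63 to 3.43% of that in night replicate 3. Of the acinar list, Cela1 and Pnlip passed the filter on low counts and neither was called. Defining hepatocyte markers were high in every library (12 listed genes, summed level 69780 to 88504 CPM in morning and 69621 to 103040 CPM in night livers), and 0 of the 12 were called by edgeR or DESeq2 (0 at an unadjusted p under 0.05). Because of these transcripts, counts are given with and without night replicate 3.

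At 24 h after sham operation, 661 of 12345 genes tested (5.35%) differed between morning and night, of which 339 (2.75%) were higher and 322 (2.61%) were lower in morning livers. Fold changes reached at least 2 for 181 of the higher and 164 of the lower genes. Without night replicate 3, 1022 of 12350 genes (8.28%) were called, 484 (3.92%) higher and 538 (4.36%) lower, and 622 of the 661 genes were among them. The groups did not overlap for any of the 661 genes, against 2912 genes (23.6%) of all genes tested. On the first principal component, which held 37.6% of the variance, morning livers lay at 25.2 to 34.9 and night livers at -33.9 to -26.7. The second component (26.7%) set replicate 3 of both groups, at -27.5 in morning and -42.7 in night, apart from the other 4 libraries, which lay at 11.4 to 24.3. Leaving out morning replicate 1 gave 215 calls, and DESeq2 on all 6 libraries gave 1044.

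Most of the clock's transcription factors differed between morning and night. Among the listed clock transcription factors 17 were called, 5 higher and 12 lower in morning, and Rora was not called. Over all genes tested, 5.35% were called, 2.75% higher and 2.61% lower. Without night replicate 3 the counts of clock factors were the same, beside 8.28% of all genes called. The 6 listed kinases and ubiquitin ligases that modify clock proteins had a median log2 fold change of -0.03, beside -0.00384 over all genes tested. None of the 6 was called by edgeR or DESeq2, and 1 had an unadjusted p under 0.05.

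Among the activators, Arntl had 30.6, 26.4 and 27.7 CPM in morning livers, against 1.71, 0.781 and 0.631 CPM in night livers. Its log2 fold change was 4.73 ± 0.32 (SE, edgeR adjusted p = 2.65e-05). Npas2, the alternative partner of ARNTL, had 13.4, 12.2 and 13.5 CPM in morning livers, against 0.279, 0.298 and 0.0902 CPM in night livers. The groups were far apart for both genes, and Npas2 rose by 5.80 ± 0.34 (SE, edgeR adjusted p = 1.15e-05). Night levels of Npas2 were near 0, and its value ran from 5.48 to 6.04 when single libraries were left out. Clock had 95.4, 69.1 and 71.2 CPM in morning, against 26.2, 24.9 and 15.9 CPM in night livers, and rose by 1.81 ± 0.21 (SE, edgeR adjusted p = 0.00066). Rora, a nuclear receptor that activates Arntl, gave a log2 fold change of 0.32 ± 0.20 (SE) and was not called.

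Among the repressors, 9 of 11 were lower in morning livers (81.8%, beside 2.61% of all genes). Per1 had 3.70, 3.12 and 2.29 CPM in morning livers, against 14.4, 17.6 and 18.9 CPM in night livers. Per3 had 1.46, 2.07 and 3.92 CPM in morning livers, against 23.0, 24.8 and 18.3 CPM in night livers. Every night liver was above every morning liver for these Period genes, whose proteins block the activators, and also for Per2. Log2 fold changes were -2.48 ± 0.23 for Per1, -1.12 ± 0.19 for Per2 and -3.15 ± 0.33 for Per3 (SE, edgeR adjusted p = 0.000151, 0.00596 and 0.000274). The Rev-erb receptors, which repress Arntl, were lower too. Nr1d2 had 7.54, 13.4 and 7.91 CPM in morning livers, against 115, 133 and 88.8 CPM in night livers, a log2 fold change of -3.55 ± 0.25 (SE, edgeR adjusted p = 3.24e-05). Nr1d1 had 2.91, 2.1 and 1.35 CPM in morning livers, against 13.5, 15.8 and 15.1 CPM in night livers, a log2 fold change of -2.80 ± 0.28 (SE, edgeR adjusted p = 0.000212). Nr1d1 overlaps Thra on the opposite strand, and whether the counting used strand is not given in the sources used here.

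Ciart, a repressor of the CLOCK and ARNTL pair, was at or near 0 counts in the morning. It had 0.132, 0 and 0 CPM in morning livers, against 11.2, 8.56 and 17.7 CPM in night livers. Its fitted log2 fold change was -7.93 ± 0.63 (SE, edgeR adjusted p = 5.46e-05), a value that rests on the very few morning reads and ran from -11.38 to -7.39 when single libraries were left out. Cry2 was lower (-1.16 ± 0.17) and Cry1 was higher in morning livers. Cry1 had 32.3, 42.1 and 28.6 CPM in morning livers, against 11.7, 12.4 and 9.07 CPM in night livers, and rose by 1.63 ± 0.20 (SE, edgeR adjusted p = 0.000863). The Cryptochromes, close relatives that both repress the activators, thus moved in opposite directions. Nfil3, a repressor at D-box sites, had 46.4, 36.3 and 34.6 CPM in morning livers, against 4.91, 6.55 and 8.48 CPM in night livers, and rose by 2.56 ± 0.22 (SE, edgeR adjusted p = 9.13e-05). Bhlhe40 (-1.33 ± 0.21) and Bhlhe41 (-2.77 ± 0.67) fell as well, but Bhlhe40 lost its call without morning replicate 1 (-1.34), and Bhlhe41 without any library other than night replicate 3 (-3.50 to -2.05).

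The 3 PAR bZIP factors, activators at D-box sites and direct outputs of the clock, fell, beside 2.61% of all genes tested. Dbp had 0.132, 0.188 and 0.937 CPM in morning livers, against 38.8, 41.4 and 46.9 CPM in night livers. Tef had 18.7, 22.1 and 25.2 CPM in morning livers, against 119, 129 and 130 CPM in night livers. For both genes the night livers were close together and far above every morning liver. Log2 fold changes were -6.64 ± 0.46 for Dbp, -2.52 ± 0.15 for Tef and -0.78 ± 0.16 for Hlf (SE, edgeR adjusted p = 3.1e-05, 1.47e-05 and 0.0171). Morning levels of Dbp were near 0, and its value ran from -8.02 to -6.20 when single libraries were left out. Hlf lost its call when morning replicate 1 or 3 or night replicate 1 or 2 was left out (-0.80 to -0.66).

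**Figure D1:**
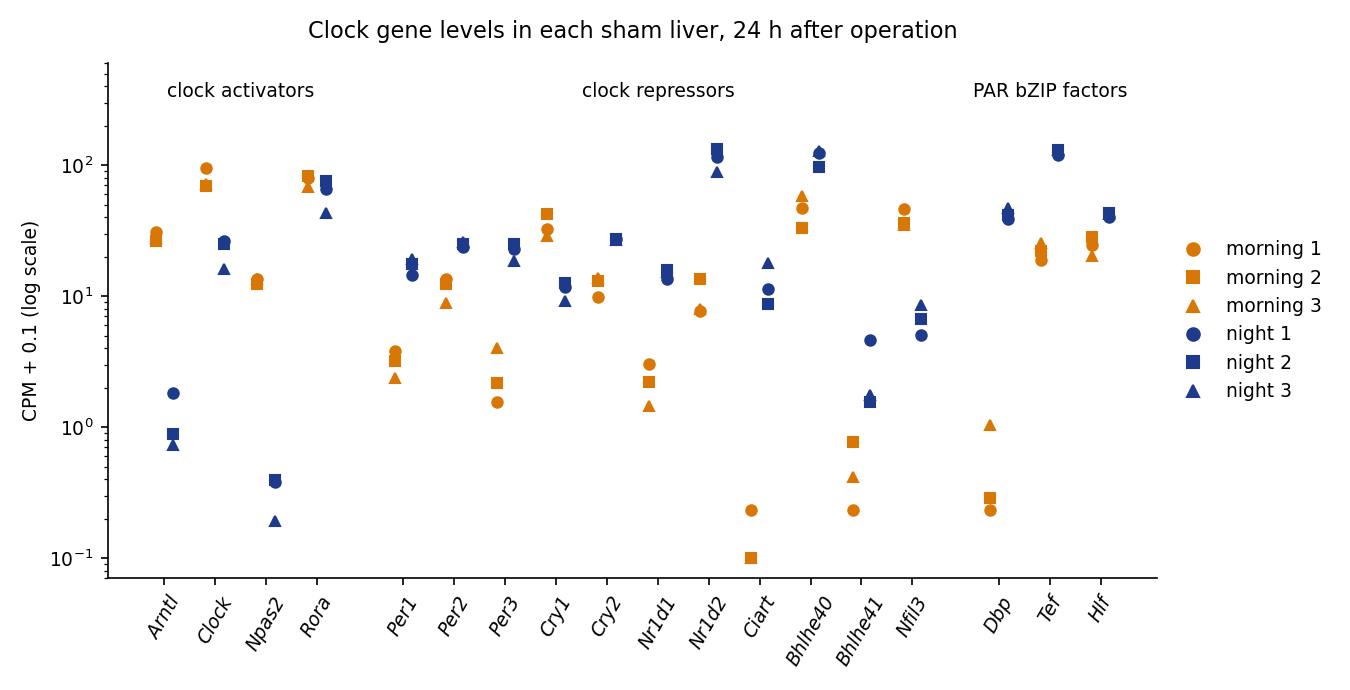
Level of 18 clock factors in CPM plus 0.1 (log axis) in each sham liver 24 h after operation; orange symbols are morning and blue symbols night livers, and circle, square and triangle are replicates 1, 2 and 3. Arntl, Clock, Npas2, Cry1 and Nfil3 lie higher in morning livers, 12 others lie lower, and the groups overlap for Rora.

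Promoter sequences of some called clock factors are shown to print the E-box, D-box and Rev-erb element that they hold. They are from RefSeq (build GRCm38.p6, 250 bases before to 50 after each annotated start, matched by symbol), and the submitters' processing notes name other mouse builds. The E-box was searched as CACGTG, which reads the same on both strands. The D-box was searched as TTANGTAA, also the same on both strands, and the core of the Rev-erb and ROR element as TAGGTCA on either strand. No motif overlaps another in the stretches printed. Capitals mark the motif letters, and each line runs 5′ to 3′ on the gene's strand. The Ciart stretch is chr3:95882247-95882364 (minus strand), with 3 E-boxes. The Per1 stretch is chr11:69098763-69098808 (plus strand), the Bhlhe41 stretch chr6:145865548-145865593 (minus strand) and the Cry1 stretch chr10:85185089-85185134 (minus strand). The Per3 stretch, with 2 D-boxes, is chr4:151044796-151044890 (minus strand), and the Nfil3 stretch, with the Rev-erb and ROR core on the opposite strand, is chr13:52981040-52981071 (minus strand).
Ciart: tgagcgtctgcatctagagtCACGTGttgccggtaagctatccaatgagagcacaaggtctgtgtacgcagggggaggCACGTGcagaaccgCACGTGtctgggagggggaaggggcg
Per1: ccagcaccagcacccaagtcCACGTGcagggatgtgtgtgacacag
Bhlhe41: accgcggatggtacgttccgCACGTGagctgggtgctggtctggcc
Cry1: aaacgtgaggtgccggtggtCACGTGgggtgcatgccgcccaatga
Per3: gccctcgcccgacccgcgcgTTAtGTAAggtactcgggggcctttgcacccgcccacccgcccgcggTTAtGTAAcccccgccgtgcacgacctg
Nfil3: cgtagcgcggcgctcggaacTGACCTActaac

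Of the 12 clock repressors and PAR bZIP factors lower in morning livers, 10 had a promoter window, and 4 of these (Per1, Ciart, Bhlhe41 and Tef) held an E-box. Cry1, which was higher in morning livers, held an E-box too. Arntl and Nfil3, also higher in morning livers, each held the Rev-erb and ROR core. The stretches of Arntl and Tef are not printed. An E-box was present in 39 of 241 promoters (16.2%) of all genes lower in morning and in 29 of 262 (11.1%) of genes higher in morning, beside 1114 of 9454 (11.8%) of all genes tested. The D-box was in 9 of 241 promoters (3.73%) of the lower and 4 of 262 (1.53%) of the higher genes, beside 189 of 9454 (2.00%). The Rev-erb and ROR core was in 3 of 241 promoters (1.24%) of the lower and 13 of 262 (4.96%) of the higher genes, beside 243 of 9454 (2.57%). These shares are descriptions of letters in a short window and carry no test.

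Of the 20 listed clock output genes, rhythmic liver genes under clock control, 6 rose, 8 fell and 6 were not called. Without night replicate 3, 8 rose and 8 fell. The share called was 70%, beside 5.35% of all genes, and 80% without night replicate 3, beside 8.28%. Elovl3, an enzyme that lengthens fatty acids, had 330, 426 and 339 CPM in morning livers, against 16.5, 12.2 and 14.0 CPM in night livers. It rose by 4.68 ± 0.20 (SE, edgeR adjusted p = 9.42e-07), the smallest adjusted p of the comparison. Rgs16, a regulator of G protein signalling, had 0.364, 0.601 and 0.243 CPM in morning livers, against 211, 150 and 87.2 CPM in night livers, with a log2 fold change of -8.53 ± 0.42 (SE, edgeR adjusted p = 2.77e-06). Neither gene's groups came near each other. Morning levels of Rgs16 were near 0, and its value ran from -8.92 to -8.19 when single libraries were left out. Usp2, a ubiquitin protease, had 4.53, 5.03 and 1.49 CPM in morning livers, against 46.5, 38.2 and 64.0 CPM in night livers (-3.75 ± 0.38, SE, edgeR adjusted p = 0.000242). Upp2, a uridine phosphorylase, had 113, 141 and 193 CPM in morning livers, against 972, 918 and 1017 CPM in night livers (-2.70 ± 0.21, SE, edgeR adjusted p = 4.85e-05). Por, the electron donor of microsomal P450 enzymes, and Nampt, an enzyme of NAD synthesis, also fell (-2.17 ± 0.20 and -1.10 ± 0.17, SE). Insig2, which holds back cholesterol synthesis, rose by 1.92 ± 0.19 (SE), and Ppard, a nuclear receptor, by 2.02 ± 0.23 (SE). Of the 14 called outputs, Serpina6 (-1.08) and Slc45a3 (1.46) lost their call without morning replicate 1 or 2 or night replicate 1 or 2. Log2 fold changes in those fits were -1.23 to -0.99 for Serpina6 and 1.28 to 1.41 for Slc45a3.

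Cell-cycle genes under clock control split. Cdkn1a, the p21 inhibitor of cyclin-dependent kinases and also a p53 target, had 7.94, 11.5 and 5.79 CPM in morning livers, against 0.557, 0.670 and 0.496 CPM in night livers. It rose by 3.85 ± 0.35 (SE, edgeR adjusted p = 0.000136) and was the single p53 target called out of 14 (list median 0.09). That was 7.14% of the list with or without night replicate 3, beside 5.35% and 8.28% of all genes. Wee1, a kinase that delays mitosis, had 3.41, 2.67 and 2.60 CPM in morning livers, against 22.2, 23.0 and 13.7 CPM in night livers, and fell by 2.76 on the log2 scale (SE 0.25, edgeR adjusted p = 0.000128). Among 23 genes of the G1/S step and DNA replication, E2f8, a repressive E2F factor, rose (1.79 ± 0.24, SE) and Ccne1, cyclin E1, fell (-2.33 ± 0.32, SE), and without night replicate 3, 1 rose and 2 fell. The share called was 8.7%, beside 5.35% of all genes, and 13% without night replicate 3, beside 8.28%. None of the 12 tested genes of mitosis was called by edgeR, with or without night replicate 3, or by DESeq2, and 1 had an unadjusted p under 0.05 (list median 0.22).

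Apart from the lists, the 10 largest rises and 10 largest falls were taken among called genes with a mean level at or above the median of all genes tested. That mean covers both groups, so a gene high in a single group could meet the rule. Beyond the genes above, the rises were Tubb2a (3.50 ± 0.29), Chka (3.11 ± 0.27), Dtx4 (3.06 ± 0.23), St5 (2.52 ± 0.20), Clpx (2.40 ± 0.16), Sdf2l1 (2.39 ± 0.33) and Cldn1 (2.37 ± 0.20; log2, SE). Tubb2a encodes a beta tubulin, Chka choline kinase, Clpx a subunit of a mitochondrial protease and Cldn1 a tight junction protein. Clpx had 388, 407 and 371 CPM in morning livers, against 83.1, 73.4 and 64.5 CPM in night livers, so the groups were far apart. The further falls were Mt1 (-3.29 ± 0.65), Gpcpd1 (-3.11 ± 0.29), Lpin1 (-2.93 ± 0.29) and Hcn3 (-2.70 ± 0.57; log2, SE). Lpin1, a phosphatidate phosphatase and coactivator, had 52.0, 41.0 and 28.6 CPM in morning livers, against 439, 241 and 244 CPM in night livers. Mt1, a metallothionein, had 1.98, 2.07 and 3.50 CPM in morning livers, against 6.97, 12.6 and 54.6 CPM in night livers, and night replicate 3 stood far above the rest. Without it the log2 fold change of Mt1 was -1.95 (edgeR adjusted p = 0.00454), and the call was lost without morning replicate 1 (-3.14) or 2 (-3.17). In every other liver Mt1 lay below the median level of all genes tested (mean log2 CPM 3.74). It therefore met the level rule only through night replicate 3. Hcn3 lost its call without any library other than night replicate 3 (-3.01 to -2.05).

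The second large group comprised genes of the unfolded protein response, which make chaperones and enzymes that fold proteins in the endoplasmic reticulum. Of its 20 members, 14 rose in morning livers (70%, beside 2.75% of all genes) and none fell. The median log2 fold change was 0.91, beside -0.00384 over all genes tested. Without night replicate 3, 15 rose (75%, beside 3.92%), with Derl3 added. Hspa5, the chaperone BiP, had 2528, 2209 and 1511 CPM in morning livers, against 740, 709 and 1126 CPM in night livers, and rose by 1.28 ± 0.23 (SE, edgeR adjusted p = 0.00962). Creld2, an endoplasmic reticulum protein induced by folding stress, had 272, 226 and 142 CPM in morning livers, against 31.2, 31.2 and 66.7 CPM in night livers, and rose by 2.31 ± 0.32 (SE, edgeR adjusted p = 0.00206). Night replicate 3 lay between the other night livers and the morning livers for both genes. Sdf2l1, a chaperone partner of BiP, had 59.0, 60.3 and 36.6 CPM in morning livers, against 5.82, 8.56 and 15.5 CPM in night livers, the same pattern. Manf (1.87 ± 0.28), Hyou1 (1.65 ± 0.23), Syvn1 (1.73 ± 0.30), Pdia4 (1.44 ± 0.18) and Calr (0.95 ± 0.18; log2, SE) rose as well.

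Members of the response that edgeR did not call included Xbp1 (-0.09 ± 0.21), Ddit3 (0.47 ± 0.31) and Herpud1 (-0.95 ± 0.26; log2, SE), which encode factors and a degradation component of the same response. Herpud1 went the other way and was called lower in morning by DESeq2 (-0.94, DESeq2 adjusted p = 0.0029), beside an edgeR adjusted p of 0.0607. Creld2, Sdf2l1, Manf, Hyou1 and Pdia4 were called without each single library in turn. The other 9 called members lost the call in some such fits, 9 without morning replicate 1, 7 without morning replicate 2, 3 without morning replicate 3 and 8 each without night replicate 1 or 2, with log2 fold changes of 0.53 to 1.64 there. The acinar genes, which summed to 14887 CPM in night replicate 3 and 351 CPM in morning replicate 3, were high in the night liver whose chaperone levels stood above the other night livers, and their part in these values was not tested. Without night replicate 3 the fold changes were larger for Hspa5 (1.52), Creld2 (2.77) and Sdf2l1 (2.86).

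Promoters of this group are shown because many hold the endoplasmic reticulum stress response element, the site bound by ATF6 and XBP1 together with NF-Y. It was searched as CCAAT, 9 bases of any kind and CCACG on either strand, and capitals mark the fixed letters. The stretches are Hspa5 at chr2:34772005-34772063 (plus strand), Creld2 at chr15:88819500-88819558 (plus strand), Pdia6 at chr12:17266471-17266529 (plus strand), Syvn1 at chr19:6046512-6046570 (plus strand), Calr at chr8:84847055-84847113 (minus strand) and Canx, which was not called, at chr11:50325780-50325838 (minus strand), all in GRCm38.p6.
Hspa5: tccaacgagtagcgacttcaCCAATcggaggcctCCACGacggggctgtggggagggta
Creld2: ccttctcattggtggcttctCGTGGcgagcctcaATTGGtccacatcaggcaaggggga
Pdia6: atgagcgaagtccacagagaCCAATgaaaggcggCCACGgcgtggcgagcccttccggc
Syvn1: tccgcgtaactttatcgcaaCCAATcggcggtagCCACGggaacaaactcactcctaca
Calr: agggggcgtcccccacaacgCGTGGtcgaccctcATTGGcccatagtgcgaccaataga
Canx: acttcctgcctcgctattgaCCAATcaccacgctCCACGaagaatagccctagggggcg

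The element was in 7 of the 12 called members with a promoter window and in 9 of all 18 members with one. Over all genes tested it was in 17 of 9454 promoters (0.180%), over the genes higher in morning in 9 of 262 (3.44%), and over the genes lower in morning in 0 of 241. The list was chosen for this response, so the share in the list is a description of its members.

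Cytosolic heat shock genes moved the same way in fewer members. Of 15, 4 rose (26.7%, beside 2.75% of all genes) and none fell (median 0.50), and without night replicate 3, 6 rose (40%, beside 3.92%). Hsp90aa1, the inducible HSP90, had 1136, 717 and 727 CPM in morning livers, against 230, 225 and 397 CPM in night livers, and rose by 1.60 ± 0.26 (SE, edgeR adjusted p = 0.00507). It lost the call without night replicate 2 (1.46). Hspa4l (1.03 ± 0.21), Chordc1 (0.92 ± 0.23) and Hspb1 (1.34 ± 0.34; log2, SE) were the other called members. Each of these lost its call without some single libraries, among them morning replicate 1 and night replicate 2, with log2 fold changes of 0.63 to 1.47 over the 4 genes. Rbm3, an RNA-binding protein induced by mild cold, had 18.0, 25.2 and 25.8 CPM in morning livers, against 73.8, 64.9 and 53.5 CPM in night livers, and fell by 1.48 on the log2 scale (SE 0.18, edgeR adjusted p = 0.000997). Its relative Cirbp gave -0.89 ± 0.33 (SE) and was not called.

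**Figure D2:**
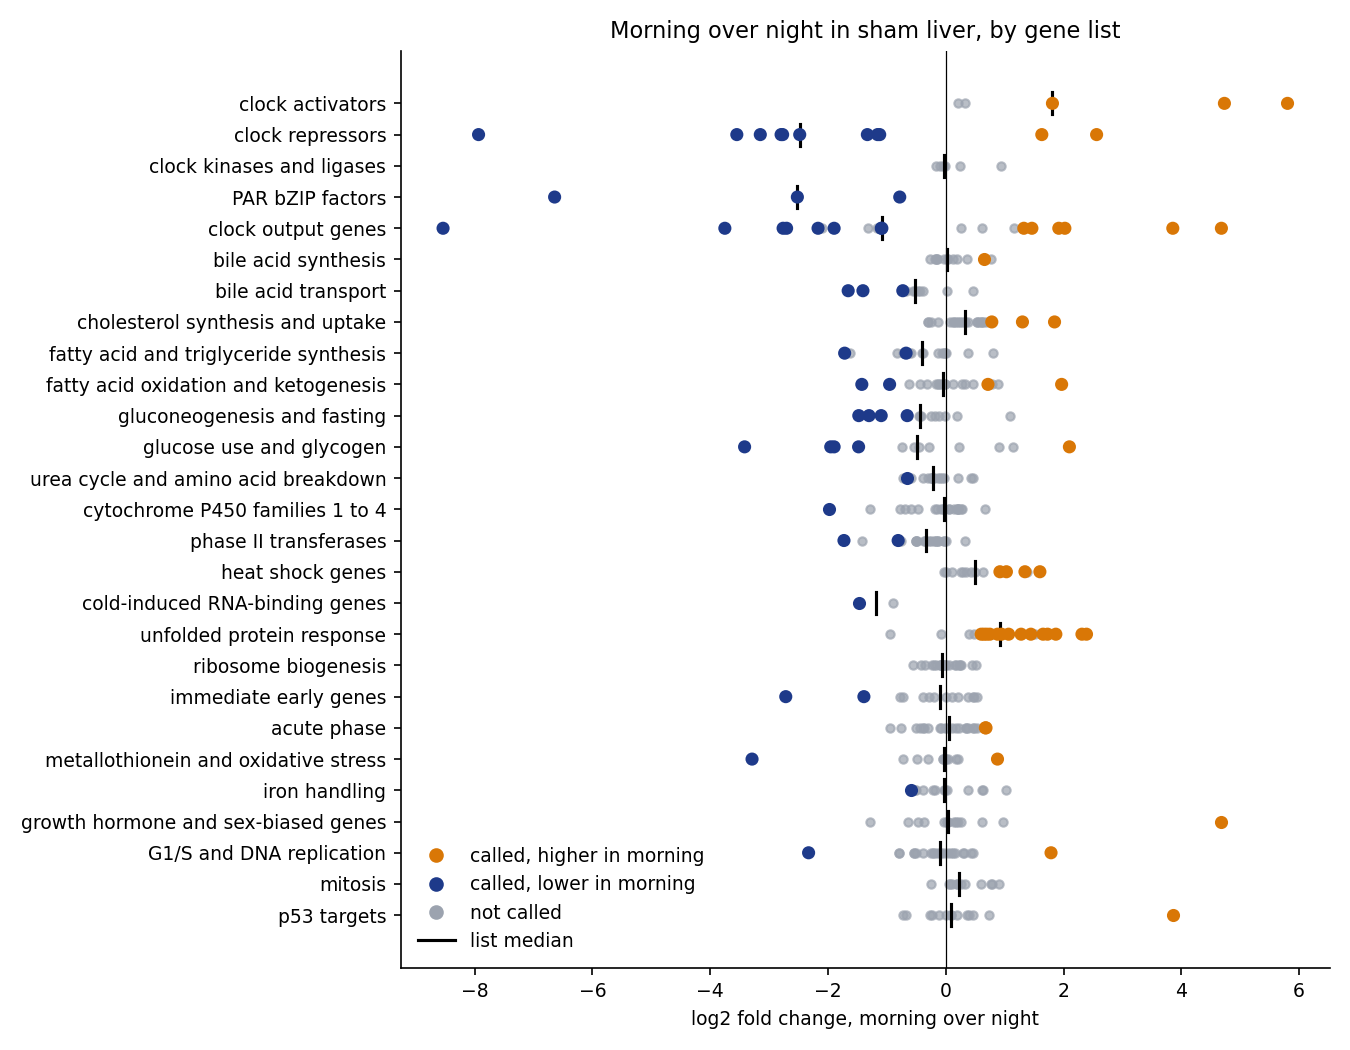
Log2 fold change of morning over night for each tested member of the 27 pathway lists (horizontal axis), one row per list; orange points were called higher in morning, blue points called lower in morning, grey points not called, and black bars are list medians. Called members of the unfolded protein response and the heat shock list all lie right of 0, and those of the PAR bZIP and gluconeogenesis lists all lie left of 0.

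Carbohydrate genes included called members on both sides. Among 14 genes of gluconeogenesis and fasting, 4 fell (28.6%, beside 2.61% of all genes) and none rose (median -0.43), and without night replicate 3, 4 fell as well. Pck1, the enzyme that commits carbon to glucose synthesis, had 1339, 862 and 800 CPM in morning livers, against 1879, 2784 and 2740 CPM in night livers (-1.30 ± 0.23, SE, edgeR adjusted p = 0.00794). It lost its call without morning replicate 2 (-1.21) or night replicate 2 (-1.21). Slc37a4, the glucose-6-phosphate transporter, had 45.1, 44.8 and 39.7 CPM in morning livers, against 138, 98.3 and 124 CPM in night livers (-1.48 ± 0.16, SE, edgeR adjusted p = 0.000374). The groups were well apart for Slc37a4, and its call held without each single library. Sds, a serine dehydratase, fell (-1.10 ± 0.22, SE), as did Foxo1, a fasting transcription factor (-0.66 ± 0.17, SE). Foxo1 lost its call without each library other than night replicate 3 (-0.72 to -0.54) and in the 12-library fit (-0.67), and of the 4 genes the call of Slc37a4 alone held without each single library. Among 12 genes of glucose use and glycogen, 4 fell and 1 rose (41.7% called, beside 5.35% of all genes), and without night replicate 3, 7 fell and 3 rose (83.3%, beside 8.28%). Gys2, liver glycogen synthase, had 107, 127 and 118 CPM in morning livers, against 430, 422 and 459 CPM in night livers, a log2 fold change of -1.90 ± 0.15 (SE, edgeR adjusted p = 4.85e-05). The replicates of Gys2 were tight in both groups. Glycogen-targeting subunits of protein phosphatase 1 went opposite ways, with Ppp1r3c higher (2.1 ± 0.26) and Ppp1r3g lower (-3.42 ± 0.50, SE) in morning livers. Slc2a2, the main glucose transporter of hepatocytes, fell by 1.48 on the log2 scale (SE 0.23, edgeR adjusted p = 0.00433).

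The number of called genes of fatty acid synthesis depended on night replicate 3. Of 17 listed genes, Thrsp, a lipogenic regulator, and Fads2, a desaturase, fell (-1.72 ± 0.31 and -0.67 ± 0.17, SE), and without night replicate 3, 7 fell and none rose. The share called was 11.8%, beside 5.35% of all genes, and 41.2% without night replicate 3, beside 8.28%. Elovl6, which lengthens palmitate, had 125, 113 and 79.7 CPM in morning livers, against 568, 387 and 90.4 CPM in night livers. Pklr, the liver pyruvate kinase, had 128, 80.1 and 69.7 CPM in morning livers, against 460, 290 and 101 CPM in night livers. For both genes night replicate 3 lay within the range of the morning livers, while night replicates 1 and 2 lay above all of them. With all libraries Elovl6 gave -1.72 ± 0.48 (SE, edgeR adjusted p = 0.0679) and Pklr -1.62 ± 0.43 (SE, edgeR adjusted p = 0.055). Without night replicate 3 Elovl6 gave -2.17 (edgeR adjusted p = 7.72e-05) and Pklr -2.02 (edgeR adjusted p = 0.00041), and Fasn, Acaca and Me1 were called lower as well. Thrsp lost its call without morning replicate 1 (-1.82) or 2 (-1.70), and Fads2 without morning replicate 1 or 2 or night replicate 1 or 2 (-0.72 to -0.52). The acinar transcripts of night replicate 3 stand beside these values too, and their part was not tested.

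**Figure D3:**
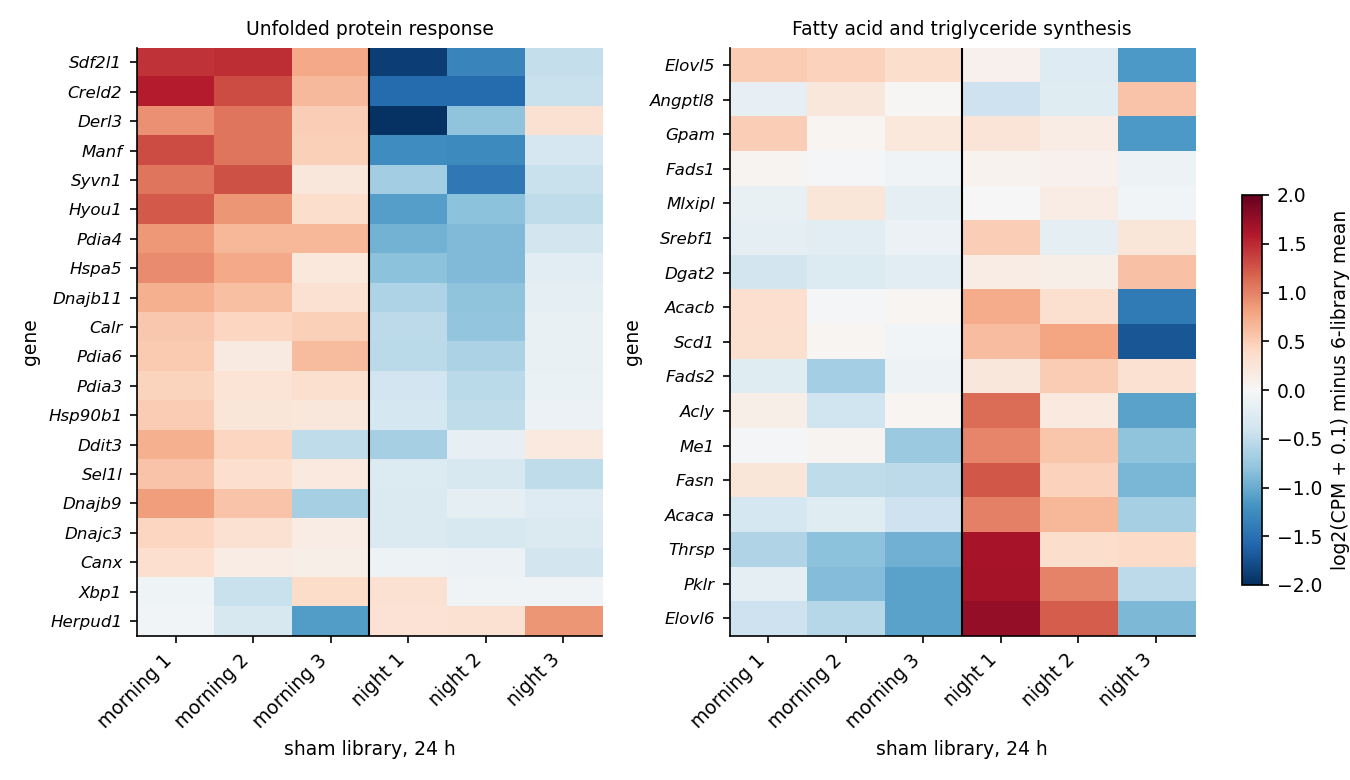
Heat map of log2(CPM + 0.1) minus the mean of the 6 libraries for the tested members of the unfolded protein response (left) and of fatty acid and triglyceride synthesis (right); columns are morning replicates 1 to 3, then night replicates 1 to 3, and genes run from the highest to the lowest fold change without night replicate 3. Sdf2l1, Creld2 and Hspa5 are high in the morning columns and lowest in night 1 and 2, and Elovl6, Pklr and Fasn are high in night 1 and 2 but not in night 3.

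Other lipid lists had called members too. Of 24 genes of cholesterol synthesis and uptake, Hmgcs1 (1.30 ± 0.29), Mvd (1.85 ± 0.32) and Insig1 (0.78 ± 0.17; log2, SE) rose, and each lost its call without some single libraries, all 3 without morning replicate 1 or 2 or night replicate 1 (0.66 to 1.85). The share called was 12.5%, beside 5.35% of all genes, and without night replicate 3, 3 rose and 1 fell (16.7%, beside 8.28%). Hmgcs1 (1.28) and Insig1 (0.76) were not called in the 12-library fit (edgeR adjusted p = 0.0615 and 0.425). Of 21 genes of fatty acid oxidation and ketogenesis, 2 rose and 2 fell (19%), and without night replicate 3, 5 rose and 3 fell (38.1%). Pdk4, which turns off pyruvate oxidation, had 18.9, 14.8 and 12.1 CPM in morning livers, against 5.22, 3.94 and 2.48 CPM in night livers (1.97 ± 0.28, SE, edgeR adjusted p = 0.00261). Cpt1a, which brings fatty acids into mitochondria, had 84.7, 94.4 and 94.0 CPM in morning livers, against 164, 172 and 193 CPM in night livers (-0.95 ± 0.14, SE, edgeR adjusted p = 0.00291), and lost its call without morning replicate 1 (-0.91). The groups did not overlap for either gene. Plin2, a lipid droplet coat protein, rose (0.72 ± 0.15, SE) and Angptl4, an inhibitor of lipoprotein lipase, fell (-1.43 ± 0.30, SE). Plin2 lost its call without each library other than night replicate 3 (0.65 to 0.79), and Angptl4 without any morning library or night replicate 2 (-1.55 to -1.27), while without night replicate 3 it gave -0.94. Pdk4 (1.95), Plin2 (0.70) and Angptl4 (-1.44) were not called in the 12-library fit of sham and PHx.

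Of 11 genes of bile acid and sterol transport, 3 fell (27.3%, beside 2.61% of all genes) and none rose, and without night replicate 3, 5 fell (45.5%, beside 4.36%). Abcg5 and Abcg8 encode the pair of half-transporters that export cholesterol into bile. Abcg5 had 15.1, 13.3 and 20.2 CPM in morning livers, against 45.7, 47.0 and 60.6 CPM in night livers. Abcg8 had 17.4, 18.9 and 29.7 CPM in morning livers, against 56.3, 52.8 and 65.8 CPM in night livers. Abcg5 and Abcg8 both fell, by 1.66 and 1.41 on the log2 scale (SE 0.19 and 0.21, edgeR adjusted p = 0.00066 and 0.00305). Slc10a1, the bile salt uptake carrier, was the third gene (-0.73 ± 0.17, SE), and it lost its call without each library other than night replicate 3 (-0.79 to -0.57) and in the 12-library fit (-0.75). In bile acid synthesis, Acox2 was the 1 of 13 genes called (0.65 ± 0.17, SE; 7.69%, beside 5.35% of all genes). It was not called without night replicate 3 (0.55, edgeR adjusted p = 0.0569), nor without any morning library or night replicate 2 (0.58 to 0.69). Cyp7a1, the rate-limiting enzyme of the pathway, was not called, and its direction turned in 2 alternative fits.

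Shares called in the drug metabolism, amino acid and inflammatory lists are set beside 5.35% of all genes, or 8.28% without night replicate 3. Of 21 P450 genes 1 fell (4.76%), Cyp2a5 (-1.98 ± 0.33, SE), which has near-identical relatives whose reads the counting could split, and which lost its call without morning replicate 1 (-1.77) or night replicate 1 (-1.84). With night replicate 3 left out, 2 P450 genes rose and 1 fell (14.3%). Of 23 transferases Gstt2, a glutathione transferase, and Sult1d1, a sulfotransferase, fell (8.7%), and 7 fell without night replicate 3 (30.4%). Gstt2 had 11.8, 16.5 and 12.1 CPM in morning livers, against 45, 47.4 and 41.5 CPM in night livers (-1.73 ± 0.17, SE, edgeR adjusted p = 0.000242), with the groups well apart. Of 18 genes of the urea cycle and amino acid breakdown, Asl fell (-0.65 ± 0.17, SE; 5.56%), and without night replicate 3, 1 rose and 3 fell (22.2%). Of 22 acute phase genes the fibrinogen chains Fga and Fgg rose (0.68 ± 0.16 and 0.67 ± 0.16, SE; 9.09%), and 4 rose without night replicate 3 (18.2%). Of 14 immediate early genes Dusp1 and Maff fell (-1.39 ± 0.25 and -2.72 ± 0.46, SE), 14.3% with or without night replicate 3. Sult1d1, Asl, Fga, Fgg, Dusp1 and Maff each lost the call without at least 1 library other than night replicate 3 (Sult1d1 -0.84 to -0.68, Asl -0.76 to -0.47, the fibrinogens 0.59 to 0.74 and the last pair -2.58 to -1.14 in those fits). Of 24 genes of ribosome biogenesis, edgeR called 0, with or without night replicate 3, DESeq2 called 1, and 3 had an unadjusted p under 0.05.

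In the endothelial (16 genes tested), cholangiocyte (6) and erythroid lists (7), edgeR called 0 over the 6 libraries and DESeq2 called 1 cholangiocyte gene. At an unadjusted p under 0.05 were 1, 1 and 2 genes of these lists. With night replicate 3 left out, Sox9, a cholangiocyte and periportal marker, and Hbb-bs, a globin of red cells, were called higher in morning (1.98 and 0.85, edgeR adjusted p = 0.00252 and 0.00806). They made up 16.7% of the cholangiocyte and 14.3% of the erythroid genes, beside 8.28% of all genes. Sox9 had 8.57, 14.2 and 9.89 CPM in morning livers, against 3.38, 2.12 and 6.81 CPM in night livers. With all 6 libraries it gave 1.41 ± 0.38 (SE, edgeR adjusted p = 0.055), and it was called by DESeq2, with the replicate block (1.5) and in the 12-library fit (1.40). Night replicate 3 was the highest night liver for Sox9. The stellate cell list held 1 called gene of 12, Pdgfrb, which was higher in morning (0.91 ± 0.22, SE), and the macrophage list 1 of 14, Slc40a1, the iron exporter (-0.59 ± 0.14, SE). Both lost the call without each library other than night replicate 3 (0.81 to 0.96 for Pdgfrb and -0.67 to -0.51 for Slc40a1). The shares called were 8.33% of stellate and 7.14% of macrophage genes, beside 5.35% of all genes. Without night replicate 3 the list shares were the same, beside 8.28%. Summed levels of the stellate list were 375, 316 and 718 CPM in morning livers, against 292, 351 and 622 CPM in night livers, so replicate 3 was the highest of each group. In the zonal lists, Slc1a2 fell (-1.09 ± 0.13, SE) and Slc1a4 rose (1.94 ± 0.41, SE) among 11 pericentral genes, and Pck1 and Sds fell and Cdh1 rose among 12 periportal genes. These were 18.2% and 25% of the lists, beside 5.35% of all genes. Without night replicate 3 the zonal shares were 18.2% and 33.3%, beside 8.28%. Slc1a4, Sds and Cdh1 each lost the call without morning replicate 1 or night replicate 1, and some also without others (1.5 to 2.12, -0.96 to -0.92 and 0.63 to 0.80).

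The direction of the differences was then compared with the sham time course, leaving out the 3 morning livers at 24 h that are part of it. In 21 libraries from morning-operated sham mice at 4 to 32 h without the 24 h samples, a cosine of 24 h period was fitted with limma to the deposited log2(value + 1), whose unit is not stated, and its fitted difference between 24 h and 12 h was taken. Those hours fall at the same clock times as the morning and night livers, but time after the operation and time of day cannot be told apart there. The cosine term was called for 283 of 11833 genes (2.39%). Of these libraries, 4 h replicate 1 had 3422 genes at 0, and each other library had 768 to 1326. Without 4 h replicate 1, 351 genes were called. Of the 661 genes called between morning and night, 642 were measured there and 562 of these (87.5%) had the same direction, beside 6947 of 11022 (63.0%) of all genes tested in both. Of the genes called without night replicate 3, it was 791 of 987 (80.1%). Of the 642 genes, 72 were called in the time course, 70 of them in the same direction. Over all genes tested in both it was 245 of 272, and among those called without night replicate 3 it was 79 of 83. Within the 642 genes, the direction was the same for 289 of 331 genes higher and 273 of 311 genes lower in morning.

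Elovl3 had a fitted difference of 3.47 ± 0.48 (SE, limma adjusted p = 0.00248). Cdkn1a also gave 3.47 (SE 0.72, limma adjusted p = 0.0148) and Arntl 2.54 ± 0.64 (SE, limma adjusted p = 0.0369). Mean log2(value + 1) of Arntl was 0.51 ± 0.11 at 12 h, 3.48 ± 0.14 at 24 h and 0.66 ± 0.06 at 32 h (SD, n = 3 each), where the 24 h livers are the morning livers described above. Arntl lost the time-course call without each of 11 of the 21 libraries in turn (2.35 to 2.60), with the replicate block (limma adjusted p = 0.056) and with no filter on low values (limma adjusted p = 0.058). Per3 gave -2.0 ± 0.39 (SE, limma adjusted p = 0.00995), with 2.43 ± 0.08 at 12 h and 0.49 ± 0.20 at 24 h (SD, n = 3 each). Dbp was at 7.13 ± 0.07 at 12 h, 1.37 ± 0.45 at 24 h and 7.30 ± 0.02 at 32 h (SD, n = 3 each), and its fitted difference of -4.15 ± 1.25 (SE, limma adjusted p = 0.0795) was not called. The chaperone gene Creld2 gave 0.59 (limma adjusted p = 0.467) and Hspa5 0.63 (limma adjusted p = 0.0601), and neither was called. Nr1d1 gave 0.39 ± 0.79 (SE, limma adjusted p = 0.836), against the direction in the morning and night livers, with its highest mean, 5.01 ± 0.21 (SD, n = 3), at 28 h. With the 24 h libraries in the fit, the value of Nr1d1 was -0.75.

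**Figure D4:**
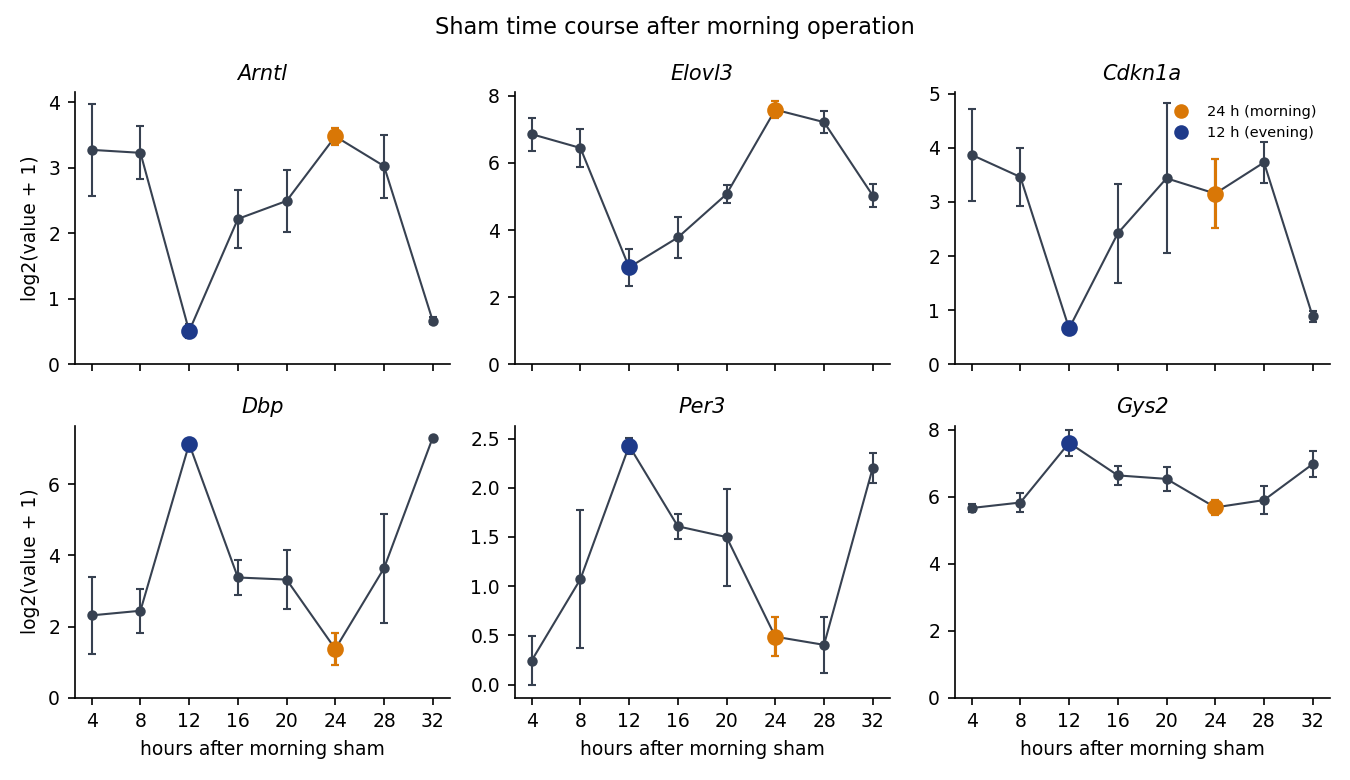
Mean log2(value + 1) with SD (bars, n = 3) against hours after a morning sham operation for 6 genes; the orange point is 24 h, which was left out of the cosine fit, and the blue point is 12 h. Arntl, Elovl3 and Cdkn1a are lowest at 12 h, and Dbp, Per3 and Gys2 are high at 12 h and low at 24 h.

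Set beside PHx livers at 24 h, the morning and night difference was tested for a change between operations in 1 fit of 12 libraries. There 789 of 12056 genes (6.54%) were called between morning and night in sham, 46 (0.382%) in PHx livers, and 59 genes (0.489%) differed between the operations, 34 with the sham value above the PHx value and 25 below. Gys2 had a log2 fold change of -1.91 in sham and 0.17 ± 0.15 (SE) after PHx, a difference of -2.08 ± 0.22 (SE, edgeR adjusted p = 0.00111). Arntl had 4.71 in sham and 1.5 ± 0.38 (SE) after PHx, a difference of 3.21 ± 0.58 (SE, edgeR adjusted p = 0.0207). Dbp had -6.66 in sham and -2.41 ± 0.51 (SE) after PHx, a difference of -4.25 ± 0.77 (SE, edgeR adjusted p = 0.0203). For Arntl and Dbp the direction was the same after both operations and the size was larger in sham. Clock, with 1.79 in sham and 0.09 ± 0.20 (SE) after PHx, and Abcg5, with -1.67 in sham and 0.16 ± 0.18 (SE) after PHx, differed as well (edgeR adjusted p = 0.0149 and 0.00697). Per1, Per2, Per3, Nr1d1, Nr1d2, Cry1, Tef and Npas2 did not pass this test. For Per2 the values were -1.40 after PHx and a sham minus PHx difference of 0.26 (edgeR adjusted p = 0.848). Of the 21 named genes that differed, 7 (Abcg5, Abcg8, Cdkn1a, Cldn1, Elovl3, Gys2 and Tubb2a) passed without each of the 12 libraries in turn. Arntl lost the call without 5 of the libraries (3.03 to 3.25), Dbp without 6 (-4.31 to -3.81) and Clock without morning PHx replicate 2 (1.64). The number of genes called ran from 26 without night sham replicate 1 to 130 without night PHx replicate 2.

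**Figure D5:**
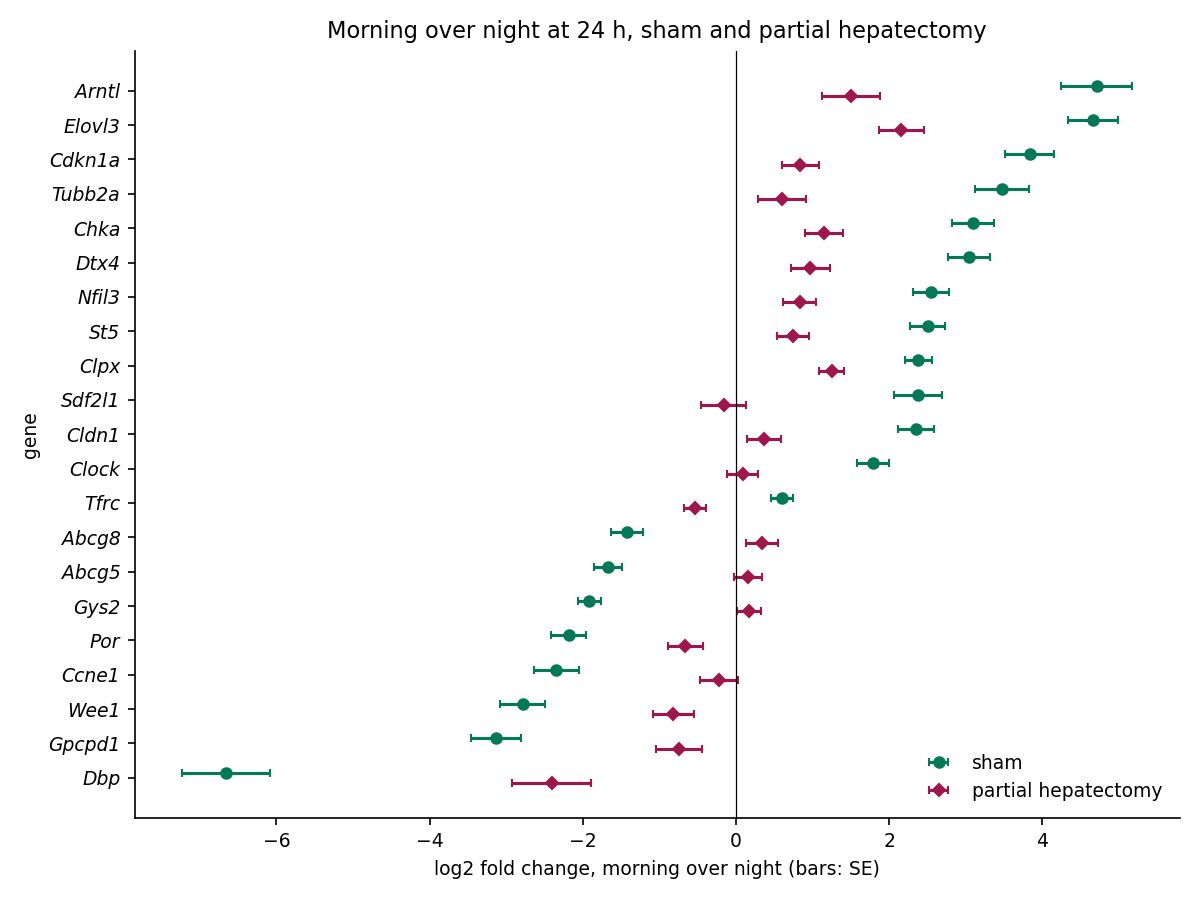
Log2 fold change of morning over night (horizontal axis, bars are SE) in sham (green circles) and after partial hepatectomy (dark red diamonds) for the 21 named genes whose difference passed the test. Sham values lie farther from 0 than the partial hepatectomy values for every gene drawn, from -6.66 for Dbp to 4.71 for Arntl. Many genes were named for their difference in these sham livers, so the larger sham values are partly set by that choice.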

How the data were processed

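Liver RNA of 60 mice was sequenced, and the members, lists and naming rule used here were chosen with earlier results of these data known. The authors deposited raw read counts per gene for the 24 h groups, and log2(value + 1) of an unstated unit for the time course, per the file headers. fastp 0.20.0 and HISAT2 2.1.0 are named in the submitters' processing notes; no source used here names the counter, the annotation or the use of strand. 6 columns of per-sample values that match no labelled sample were not used. Of 12398 genes, 673 were named from the reference gene table.

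The 3 morning and 3 night sham libraries were fitted alone in edgeR 4.0.16 (R 4.3.3) with TMM factors, the filterByExpr filter (12345 genes kept), the quasi-likelihood test and Benjamini-Hochberg adjustment over all genes tested, and SE is the absolute log2 fold change over the square root of F. The sham minus PHx difference was an interaction term in 12 libraries. The time course was fitted with limma 3.58.1 on the 11833 genes that reached 1 on the deposited scale in 3 or more libraries. Named genes were all clock factors of 3 lists, the 10 largest rises and falls at or above the median level that were also called without night replicate 3, up to 3 members with the smallest p of each other list, and a set of fixed genes. Other list members given with values were added after their values were seen. Alternatives were DESeq2 1.42.0, RLE factors, no filter, library sizes without acinar genes, a replicate block and each library left out. The tests were tested on simulated data. 1 listed clock factor is not reported here. Libraries were not paired by replicate number in the main fit. Replicates of a group differed by 33.1 to 136 times the variance that counting alone gives, and p-values measure only the spread between these livers.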

Additional observations from a re-analysis of the deposited data

Results flagged for a closer look

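The contrast of morning with night differed between sham and PHx livers at 24 h for 21 of the 126 named genes tested, by the interaction term of the 12-library edgeR fit (adjusted p under 0.05 over 12056 genes, 0.489% called). Many of the named genes were picked by their morning and night difference in these sham livers, so 21 of 126 cannot be set against the share over all genes. Values are log2 differences, sham minus PHx.

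Clock factors and their outputs were among them: Arntl (3.21), Clock (1.70), Nfil3 (1.71), Dbp (-4.25), Wee1 (-1.97), Por (-1.53), Elovl3 (2.5), Gys2 (-2.08), Tfrc (1.13) and Cdkn1a (2.99). The sterol exporters Abcg5 (-1.83) and Abcg8 (-1.76) differed too, as did the chaperone gene Sdf2l1 (2.53) and cyclin E1, Ccne1 (-2.13). The remaining genes were Tubb2a (2.88), Chka (1.94), Dtx4 (2.07), Cldn1 (1.99), St5 (1.76), Clpx (1.13) and Gpcpd1 (-2.39). For Tfrc the sham value was 0.60 and the PHx value -0.54. Por was not called with RLE factors, and Clpx and Wee1 were not called with the replicate block.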

How the results depend on the processing

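Of 162 genes described, 97 were called, 51 of them without each single library in turn. In the morning and night comparison, 0 called genes changed direction under any alternative run. Counts of called genes ran from 215 to 1022 (higher 122 to 484, lower 93 to 538) when single libraries were left out, lowest without morning replicate 1 and highest without night replicate 3. DESeq2 gave 1044 (523 higher, 521 lower). Leaving out replicate 3 of both groups, an alternative chosen after seeing the data, gave 1166 (579 and 587). The replicate block gave 790, and 1179 (574 and 605) without night replicate 3. Same-numbered libraries correlated at 0.191, 0.0264 and 0.303 in their deviations from the group means, and libraries of unlike number at -0.26 to 0.142. Whether same-numbered libraries share more than a number was not tested. RLE factors gave 656, acinar-free library sizes 662 and no filter 555. The sham minus PHx difference gave 241 (131 and 110) with DESeq2, 69 with the replicate block, and 26 to 130 (12 to 63 and 11 to 71) without single libraries. The time course gave 1137 (444 and 693) with the 24 h libraries, 186 (126 lower) with the replicate block, and 117 to 351 (38 to 110 and 79 to 241) without single libraries, lowest without 12 h replicate 1 and highest, with equal counts, without 4 h replicate 1 or 16 h replicate 3. Of the 97 calls, the 12-library fit lost 14, no filter 8, both acinar libraries left out 2 and the replicate block 1, and DESeq2, RLE factors and acinar-free library sizes 0. Lost in the 12-library fit were Angptl4, Asl, Bhlhe41, Cdh1, Fads2, Fga, Foxo1, Hmgcs1, Insig1, Pdk4, Plin2, Serpina6, Slc10a1 and Thrsp.

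Each value that changed sign belonged to a gene not called in that same comparison. Nr1d1 was called between morning and night livers, but not in the time course. Without single libraries, log2 fold changes ran from -0.153 to 0.600 for Ccr2, -5.31 to 1.01 for Cela1, -1.76 to 3.89 for Cfd, -0.741 to 0.20 for Cyp7a1, -0.813 to 0.00384 for Fabp4, -0.520 to 1.28 for Hamp2, -0.0886 to 0.560 for Hgf and -0.270 to 0.298 for Igfbp1. They ran from -0.216 to 0.413 for Ighm, -0.0870 to 0.294 for Il2rb, -0.327 to 2.39 for Krt19, -10.54 to 6.09 for Pnlip, -0.0260 to 0.555 for Tat and -0.324 to 0.0853 for Xbp1, and in the time course from -0.164 to 0.0925 for Cirbp. With the replicate block Igfbp1 gave 0.0123, and without night replicate 3 under the block Cela1 gave 0.206, Ighm -0.289, Pnlip 0.872 and Serpina1c 0.0266. With replicate 3 of both groups left out, Cela1 gave 0.167, Cyp7a1 0.00875, Ighm -0.295 and Serpina1c 0.0347. In the time course Nr1d1 gave -0.747 with the 24 h libraries and Cirbp 0.00344 with TMM factors. The causes were not tested. With 3 livers a group, a p over the threshold does not show that levels were alike.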
